A study of Mus musculus with 4 samples.

Results

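General transcription factors are the proteins that place RNA polymerase II at gene starts. Several of their subunits have a second gene copy, in some cases used mainly in germ cells. The transcripts described here are 5 such paralogues, Gtf2a1l, Taf7l, Taf4b, Taf9b and Tbpl1, set beside the widely expressed forms Gtf2a1, Gtf2a2, Taf7, Taf9 and Tbp. They were listed by name, and a probe belonged to a gene when its RefSeq accession, without version, maps to that symbol. Of the 10 listed genes 9 had a probe, with 19 probes between them, out of 16358 genes with a symbol and 41174 probes on the array. Taf4b, whose product is needed to keep the spermatogonial stem cell pool, had 0 matched probes and is not analysed here, nor is its widely expressed form Taf4.

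The mRNAs were measured in RNA recovered with a FLAG-tagged form of NANOS2, which binds mRNAs in the male germ line and takes them to the deadenylation machinery. All 4 samples come from mouse testis at postnatal day 7 and carry the same transgene, in which a Nanos2 enhancer drives 3xFLAG-Nanos2 followed by the Nanos2 3′ UTR. In 2 samples RNA was recovered by FLAG immunoprecipitation (FLAG IP) and in 2 it was the starting material (Input), each on a single-colour Agilent array, as biological duplicates for which no animals are named. The sample titles and characteristics give this age and organ, and they are followed here although the description field speaks of a fetal gonad. A FLAG IP from untagged testis is not analysed here, and a difference is therefore one of composition between FLAG IP and Input and does not show binding. In whole testis, fewer cells of a type and less RNA per cell cannot be told apart.

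TFIIA steadies the TATA-binding protein TBP on the promoter; it joins the large subunit encoded by Gtf2a1, a precursor that is cut into an alpha and a beta chain, to the small gamma subunit encoded by Gtf2a2. Gtf2a1l encodes a germ cell version of the large subunit that can pair with the same small subunit. TFIID is built of TBP and the TBP-associated factors (TAFs): TAF7 restrains the largest TAF, TAF9 forms a histone-fold pair inside the complex, and TAF7L, encoded on the X chromosome, takes the place of TAF7 in male germ cells. TAF9B is a close relative of TAF9 that is also found outside the germ line, and TBPL1 is a TBP-like protein without affinity for the TATA box that spermatids need in order to mature. The word germline thus fits these forms to different degrees, and the arrays, which all hold testis RNA, give no comparison with other tissues.

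Levels are given as the log2 signal of a probe minus that array's 75th percentile, and a difference is FLAG IP minus Input on that scale. A level belongs to its probe, and levels of different probes are not read as relative amounts of transcript. Where markers are ordered by level or summed, this is an order or sum of probe signals. The set was proposed with results of this contrast in view, so the members' differences are given with the spread and without a test. Where a gene had several probes, the probe with the highest mean signal over the arrays stands for it and the others are given beside it. The median of all 21590 tested features was −0.15, the median limma standard error (SE) of a difference was 0.17, and the number of arrays limits the precision.

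Among the paralogues 2 of the 4 measured germline forms, Gtf2a1l and Taf7l, and 0 of the 5 ubiquitous forms were at least 2-fold higher in all 4 pairs of a FLAG IP with an Input array, and 0 of the 9 were at least 2-fold lower. Without FLAG IP replicate 1 a ubiquitous form, Taf7, passed as well, at a difference of 1.73, and the count was 3. Over all tested features 6.78% were at least 2-fold higher in this way and 5.28% at least 2-fold lower. The groups did not overlap for 7 of the 9 genes, with 5 higher in the FLAG IP and 2 lower, while 29.8% and 44.7% of all features stood apart in those directions. These counts rest on the brightest probe of each gene, and the second Taf7l probe was not 2-fold higher in all 4 pairs. Of the 5 higher genes, Tbpl1 stood apart by only 0.03 and Taf7 by 0.15. The median difference was 0.80 over the germline forms and −0.16 over the ubiquitous forms. The first is the middle of unlike values, since Taf9b and Tbpl1 were close to 0.

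**Figure D1:**
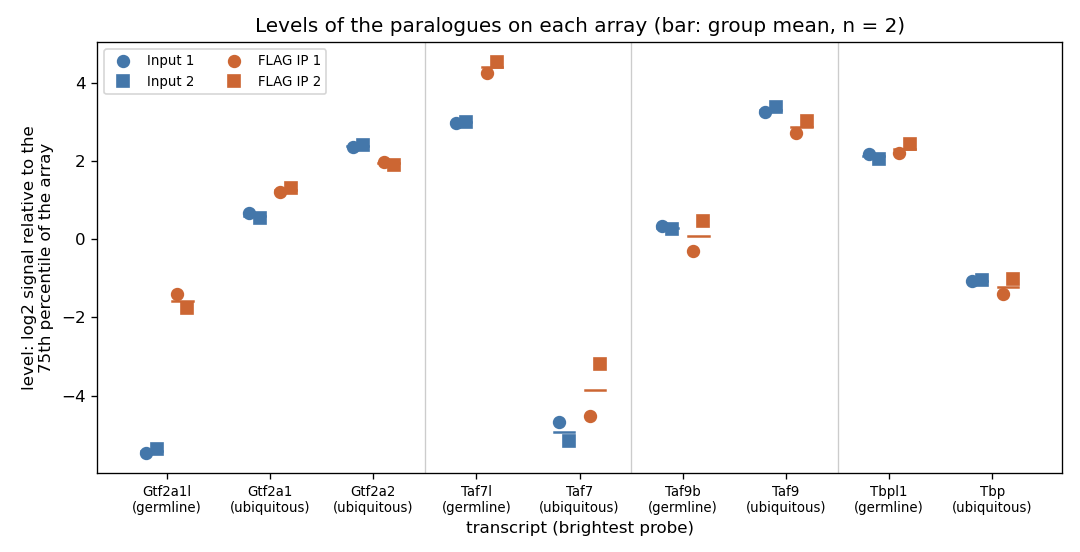
Level of each transcript on each of the 4 arrays, as log2 signal relative to the array's 75th percentile, for the brightest probe of each gene. Circles are replicate 1 and squares replicate 2, blue is Input and orange is FLAG IP, and bars are group means of 2 arrays. The gap between groups is widest for Gtf2a1l, at 3.83, and for Taf9b and Tbp the groups overlap.

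The large TFIIA subunit of germ cells had the widest gap. Gtf2a1l (RefSeq transcript NM_023630) stood at −5.48 and −5.36 on the Input arrays and at −1.42 and −1.75 on the FLAG IP arrays. Both FLAG IP arrays lay far above both Input arrays, and the smallest gap between any FLAG IP and any Input array was 3.60. The difference was 3.83 ± 0.18 (limma SE, n = 2 arrays per group), a 14.2-fold higher share in the FLAG IP, and it ranked 17 from the top among the tested features. Gtf2a1l has a single probe, so no other probe of the gene bears on this value.

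The Input signal of Gtf2a1l was dim. Its processed signal was 33.1 and 40.9 on the Input arrays and 382 and 376 on the FLAG IP arrays. The probe was itself flagged as well above background on all 4 arrays. The lowest signal of any probe with that flag on the same arrays was 16.9, 19.4, 13.4 and 14.8. As raw pixel medians the spot read 114.5 and 118 against a local background of 60.0 and 57.0 in the Input, and 453.5 and 470.5 against 57.0 and 58.0 in the FLAG IP. The size of the fold depends on how that background is removed. With normexp correction and an offset of 50, which by construction compresses low signals, the difference was 2.49, or 5.63-fold, with the same sign.

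The widely expressed TFIIA subunits differed from Gtf2a1l and from each other. Gtf2a1, the ubiquitous large subunit, stood at 0.66 and 0.54 in the Input and at 1.20 and 1.32 in the FLAG IP. The groups did not overlap, and the difference was 0.66 ± 0.14, or 1.58-fold. In RefSeq the gene overlaps Gm25776. Its second probe, designed on another RefSeq accession (NM_031391, against NM_175335 for the first), had a difference of 0.28. The small subunit Gtf2a2 (NM_001039519), which both large subunits use, stood at 2.35 and 2.40 in the Input and lower, at 1.98 and 1.90, in the FLAG IP. Its difference was −0.43 ± 0.14, and its other probes had −1.08 and −0.74, so all 3 probes gave lower values in the FLAG IP.

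Within TFIIA the signal of Gtf2a1l was shifted between the groups relative to both widely expressed subunits. The log2 ratio of the Gtf2a1l signal to the Gtf2a1 signal was −6.14 and −5.90 in the Input and −2.62 and −3.07 in the FLAG IP. A ratio between probes is not a ratio of transcripts, but its shift between groups is a relative change, here 3.17, or 9.02-fold. Against Gtf2a2 the shift was 4.26, or 19.2-fold. These shifts do not depend on how arrays are scaled, since any factor common to an array cancels, and under normexp correction they were 1.81 and 2.96.

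Taf7l, the X-linked TFIID subunit of male germ cells (NM_028958), gave a bright signal and the second-highest difference of the 9 genes. It stood at 2.97 and 3.00 in the Input and at 4.25 and 4.53 in the FLAG IP. The SD was 0.02 between the Input arrays and 0.20 between the FLAG IP arrays, and the groups did not overlap. The difference was 1.40 ± 0.16, or 2.65-fold, and 5.48% of tested features had a difference as high or higher. The second probe of Taf7l read 2.11 and 2.04 in the Input and 3.06 and 3.53 in the FLAG IP, a difference of 1.22. Both probes therefore gave a gap of more than 2-fold between group means. With the second probe, however, FLAG IP replicate 1 was less than 2-fold above Input replicate 1.

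Taf7, the form that TAF7L replaces, was covered by a single dim probe (NM_175770), and its locus overlaps Gm37013, Gm38666 and Gm38667 in RefSeq. It stood at −4.69 and −5.17 in the Input and at −4.53 and −3.19 in the FLAG IP. FLAG IP replicate 2 was high, while FLAG IP replicate 1 lay only 0.15 above Input replicate 1. The difference of 1.06 ± 0.48 had the largest SE of the 9 genes, and without FLAG IP replicate 2 it was 0.40. Processed signals were 57.3 and 46.7 in the Input and 44.1 and 139 in the FLAG IP. The Taf7l to Taf7 ratio shifted by 0.34 on the log2 scale, with SDs of 0.36 and 0.75 within the groups, and by −0.19 without FLAG IP replicate 1. At this signal a difference between Taf7l and Taf7 was not detectable.

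**Figure D2:**
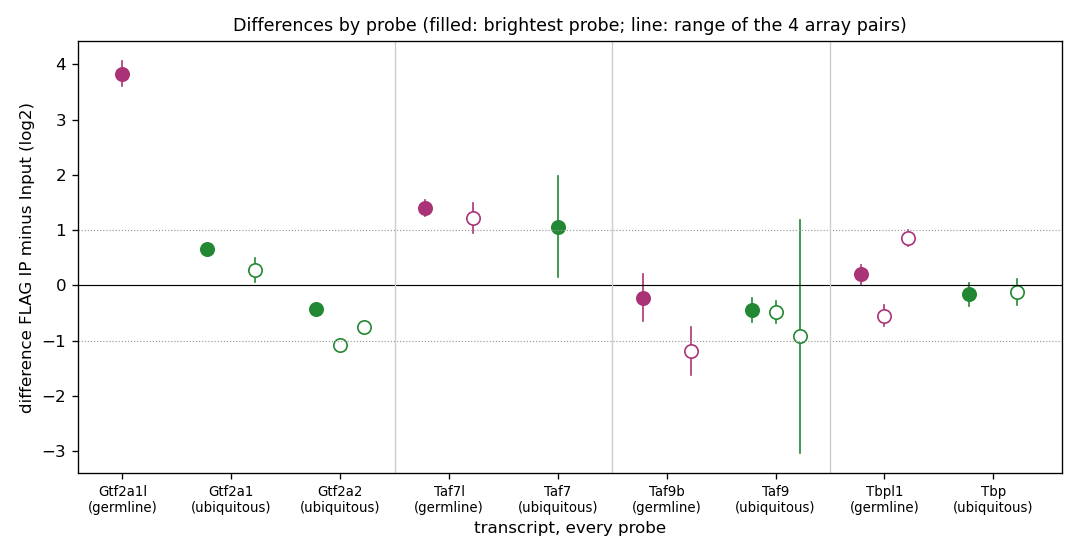
Difference FLAG IP minus Input (log2) for every probe of the 9 genes, purple for germline and green for ubiquitous forms. Filled circles are the brightest probe, open circles other probes, and lines run from the smallest to the largest of the 4 array pairs; dotted lines mark 2-fold. Both Taf7l probes lie above 1, and the 3 Tbpl1 probes, at 0.20, −0.55 and 0.86, lie on both sides of 0.

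The histone-fold subunits gave lower or overlapping values in the FLAG IP. Taf9b (NM_001001176) read 0.33 and 0.25 in the Input, and −0.32 and 0.45 in the FLAG IP. The FLAG IP arrays lay on either side of the Input arrays, so the groups overlapped, with a difference of −0.22 ± 0.28. The second Taf9b probe read −0.52 and −0.47 in the Input and −2.10 and −1.27 in the FLAG IP, a difference of −1.19 with no overlap. The probes of this gene therefore differ by 0.96 in their result, and 9.05% of the 3526 genes with 2 measured probes had probes as far apart.

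Taf9 (NM_027139) read 3.25 and 3.37 in the Input and 2.71 and 3.03 in the FLAG IP, a difference of −0.44 ± 0.17. Its second bright probe had −0.48. The remaining probe, a dim one, had −0.92, with FLAG IP arrays at −6.50 and −2.87 and well above background on 3 of 4 arrays. In RefSeq the Taf9 gene overlaps Ak6; for each of the overlaps named here, whether a probe also reads the other gene was not tested. The Taf9b to Taf9 ratio shifted by 0.22 with the brightest probes and by −0.09 with the mean of the probes. Its sign thus depended on the probe chosen.

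Tbpl1, the TBP-like factor (NM_011603), read 2.18 and 2.05 in the Input and 2.21 and 2.42 in the FLAG IP. The lowest FLAG IP array was only 0.03 above the highest Input array, and the difference was 0.20 ± 0.16. In RefSeq the gene overlaps Slc2a12 and Mir7663. The other probes disagreed in direction. The second probe read −0.27 and −0.40 in the Input and −1.01 and −0.76 in the FLAG IP, while the third read −1.78 and −2.04 in the Input and −1.07 and −1.03 in the FLAG IP. Each of these probes separated the groups, in opposite directions, and the 3 results spanned 1.41. Of the 732 genes with 3 measured probes 6.56% spanned as much.

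Tbp itself (NM_013684), the TATA-binding subunit, read −1.08 and −1.04 in the Input and −1.41 and −1.03 in the FLAG IP, a difference of −0.16 ± 0.18 with overlapping groups. A second Tbp probe, printed as 10 spots on each array, gave −1.13 and −1.10 in the Input and −1.44 and −1.02 in the FLAG IP, a difference of −0.12. Between those 10 spots the SD was 0.08 to 0.12 on an array, while the FLAG IP arrays differed from each other with an SD of 0.30. FLAG IP replicate 1 was the lowest array with both Tbp probes. The Tbpl1 to Tbp ratio shifted by 0.36, with an SD of 0.12 within each group, when the brightest Tbpl1 probe was used. The other Tbpl1 probes, at −0.55 and 0.86, lay on either side of the −0.16 of Tbp. The sign of this shift thus depended on the Tbpl1 probe chosen.

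**Figure D3:**
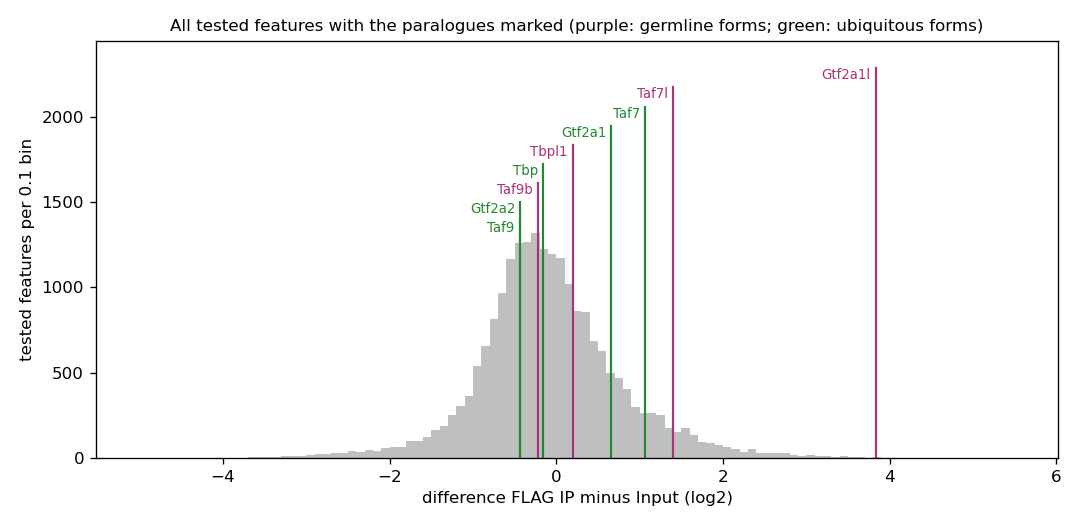
Histogram of the difference FLAG IP minus Input (log2) over the 21590 tested features, in bins of 0.1, with vertical lines at the 9 genes (purple germline, green ubiquitous). Gtf2a1l lies in the far right tail at 3.83, Taf7l at 1.40 and Taf7 at 1.06 in the right flank, and the other genes between −0.44 and 0.66.

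The rest of the transcription machinery was read from lists chosen by function, fitted on all features with limma and called at a Benjamini-Hochberg adjusted p under 0.05. Over all features 15.8% were called higher and 21.3% lower, 37.1% in all. Of 62 listed genes of the machinery 49 were tested, with 7 called higher, 8 lower and 34 not called, or 30.6% called. Their median difference was −0.11, against −0.15 over all features. The share called was thus no higher than over all features, and the direction was mixed. The counts were 3 higher and 0 lower without Input replicate 1, 2 and 0 without Input replicate 2, 9 and 4 without FLAG IP replicate 1, and 7 and 9 without FLAG IP replicate 2. Each of these fits takes the spread from the group that keeps both arrays and assumes that the lone array varies alike.

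Of the other TFIID subunits 9 of 12 were tested, with 2 higher, 1 lower and 6 not called. Taf5, a WD-repeat scaffold of TFIID, read 1.89 and 1.81 in the Input and 3.14 and 3.12 in the FLAG IP, a rise of 1.28 ± 0.13 (adjusted p = 0.0065) that its other probes shared, at 1.23 and 1.03. Taf12, a histone-fold TAF, rose by 0.98 ± 0.18 (adjusted p = 0.017). Taf15, an RNA-binding protein of the FET family that associates with TFIID, fell by 1.25 ± 0.19 (adjusted p = 0.013), and its other probe had −0.69. The median of the 9 was 0.27, and Taf5, a widely expressed subunit, had a difference close in size to the 1.40 of Taf7l.

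Among TFIIB, TFIIE and TFIIF, which follow TFIIA and TFIID onto the promoter, 2 of 5 were called lower and 0 higher. These were the TFIIF subunits Gtf2f1, at −0.51 ± 0.14 (limma adjusted p = 0.046), and Gtf2f2, at −0.56 ± 0.14 (adjusted p = 0.037). The largest difference of the list was upward, Gtf2e1 at 0.68 ± 0.26, and was not called. Gtf2b at −0.32 and Gtf2e2 at −0.0042 were not called either. In TFIIH, the complex that opens the promoter and phosphorylates the polymerase, 1 of 10 was higher and 1 lower. Both belong to its kinase module: the kinase Cdk7 rose by 0.82 ± 0.14 (adjusted p = 0.015), and the assembly factor Mnat1 fell by 0.76 ± 0.19 (adjusted p = 0.038). The other 8 TFIIH genes lay between −0.15 and 0.46 and were not called.

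Factors that act on TBP included Dr1, a subunit of the repressor NC2 that competes with TFIIA for TBP. Dr1 read 0.54 and 0.53 in the Input and 2.30 and 2.73 in the FLAG IP, and its rise of 1.98 ± 0.19 (adjusted p = 0.0056) was the largest among the machinery lists. Its second probe had 0.21, so the value rests on the brightest probe. Its partner Drap1 had −0.10 and was not called. Tbpl2, the TBP paralogue of oocytes, was not well above background on both arrays of either group and was not tested.

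SAGA, a coactivator that shares TAF9 and other TAFs with TFIID, had 2 of 9 tested genes higher and 0 lower. Tada1, an adaptor subunit, rose by 1.73 ± 0.15 (adjusted p = 0.0048) and Supt20 by 0.71 ± 0.13 (adjusted p = 0.019), the other Supt20 probe having 0.19. The SAGA forms of TAFs, Taf5l and Taf6l, had 0.35 and 0.19 and were not called. Of the factors for polymerases I and III 1 of 7 was higher, Rrn3 at 0.69 ± 0.15 (adjusted p = 0.028), and 1 lower, Taf1b at −0.73 ± 0.15 (adjusted p = 0.023). Polymerase II subunits had 3 of 7 lower and 0 higher: Polr2h at −1.12 ± 0.19 (adjusted p = 0.015), Polr2f at −0.78 ± 0.15 (adjusted p = 0.021) and Polr2b at −0.63 ± 0.15 (adjusted p = 0.032).

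**Figure D4:**
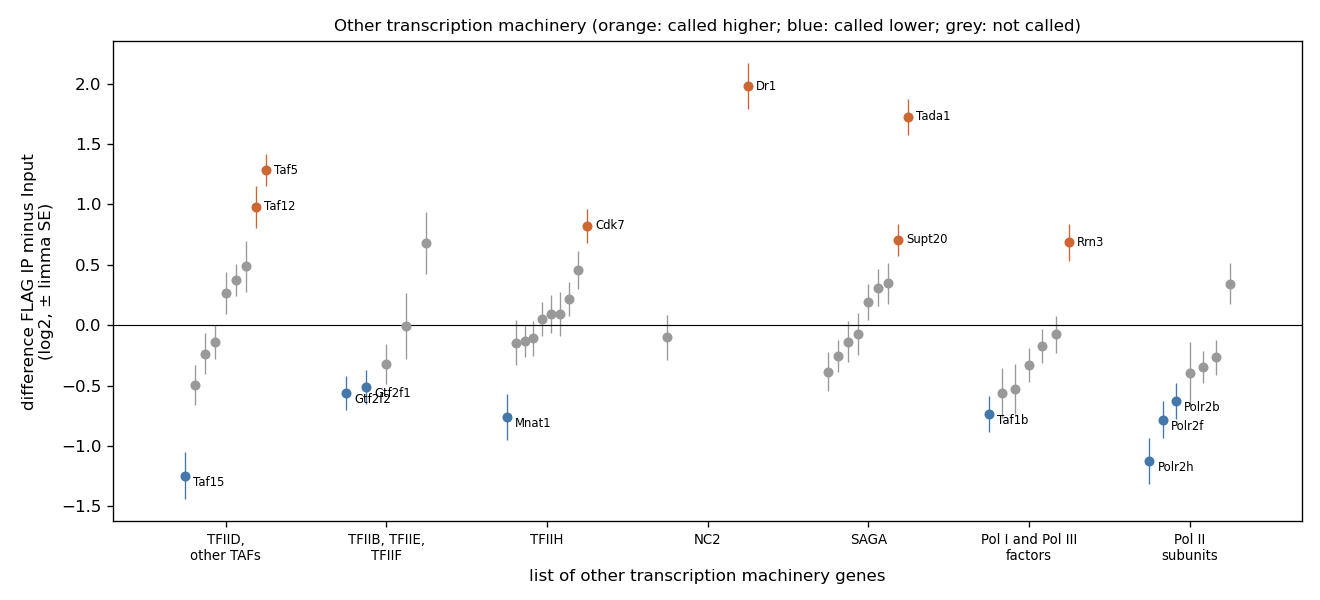
Difference FLAG IP minus Input (log2) of the 49 tested genes of the other machinery, by list, with limma standard errors from 2 arrays per group. Orange marks genes called higher, blue genes called lower at an adjusted p under 0.05, and grey genes not called. Calls went both ways in TFIID, TFIIH and the factors for polymerases I and III. They were only lower among TFIIF and Polymerase II subunits and only higher in SAGA and NC2, where the second Dr1 probe had 0.21. With 1 to 3 genes called in a list, and 30.6% called against 37.1% over all features, no direction is read for a complex.

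The genes whose 4 values were most like those of Gtf2a1l were found by centring each gene on its own mean and taking the root mean square difference over the 4 arrays, among 13074 genes. They were Lcorl (0.07), Atp13a5 (0.10), Nr5a2 (0.16), Neurog3 (0.16) and Grm3 (0.16), with differences of 3.78, 3.76, 3.59, 3.70 and 3.56. Lcorl had other probes at 0.33 and 0.22, and Atp13a5 was well above background in the FLAG IP alone. For Taf7l the closest were Mei4 (0.02), Neu3 (0.03), Riok2 (0.04), Olfr780 (0.04) and Ddx21 (0.05), with differences of 1.33 to 1.48; the other Ddx21 probes had 1.102 and 0.39. Mei4 encodes a protein of meiotic double-strand breaks, Riok2 a kinase of ribosome assembly and Ddx21 a nucleolar helicase. With 4 arrays in 2 groups such likeness mostly reflects the size of the difference.

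Markers of testis cells were read on the same arrays. Over all tested features 15.8% were called higher and 21.3% lower, and the marker counts are to be read beside these shares. Germ cell markers were well above background on all 4 arrays for 9 of 9 genes with a probe, led by Stra8, Mael and Tex101. Called higher were 2 of the 9, Tex13b and Sohlh2. The summed signal of the 9, in units of the 75th percentile, was 115 and 111 in the Input and 115 and 154 in the FLAG IP. Bright probes weigh most in such a sum, which is not a measure of cell number. Here Stra8 weighs most, with levels of 5.52 and 5.38 in the Input and 5.34 and 5.87 in the FLAG IP. Markers of undifferentiated spermatogonia had 11 of 15 genes higher and 1 lower, with a summed signal of 5.02 and 5.08 in the Input and 19.3 and 15.9 in the FLAG IP. Of their genes with the highest Input level, Id4 rose by 1.86 (limma adjusted p = 0.0040) and Lin28a by 0.64 (adjusted p = 0.024). Nanos3, also among these, had −0.18 and was not called. Of the 11 called higher, Ret was well above background in the FLAG IP alone, and Eomes was not so on Input replicate 2. Of the spermatid genes 7 of 11 were well above background on all arrays and 4 on none, and 1 was higher, Spaca1. Those on none were Acrv1, Odf1, Tssk2 and Fhl5. Whether any of these signals comes from spermatids, in testis at postnatal day 7, was not tested. Of the meiotic prophase markers 3 of 9 were higher and 0 lower, with sums of 7.46 and 7.61 in the Input and 8.87 and 17.7 in the FLAG IP. Sycp1 rose by 1.54 (limma adjusted p = 0.0097), while Sycp3 at −0.09 and Tex15 at 0.61 were not called. For Sycp3 and Tex15 FLAG IP replicate 1, at 0.47 and 0.41, lay below both Input arrays. FLAG IP replicate 2, at 1.36 and 2.61, lay above both. Sertoli cell markers had 3 of 10 lower, with sums of 177 and 174 in the Input and 130 and 124 in the FLAG IP. Inha fell by 0.72 (adjusted p = 0.018), and Clu at −0.44 and Dhh at −0.39 were not called. Whether cell type composition has a part in the values of Gtf2a1l and Taf7l was not tested.

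The direction of the smaller differences depends on scaling. With the spike-in control spots as the scale, the median of all features moved to −1.12, and Gtf2a1 (−0.31) and Tbpl1 (−0.77) were lower in the FLAG IP rather than higher. Gtf2a1l remained higher at 2.86 and Taf7l at 0.43. Relative to the shifted median the values were 0.80 for Gtf2a1, 0.34 for Tbpl1, 3.98 for Gtf2a1l and 1.55 for Taf7l. These equal the values relative to the median without spike-ins by construction, since this scaling shifts all genes of an array alike. Under that scaling the machinery lists had 1 gene higher and 32 lower.

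**Figure D5:**
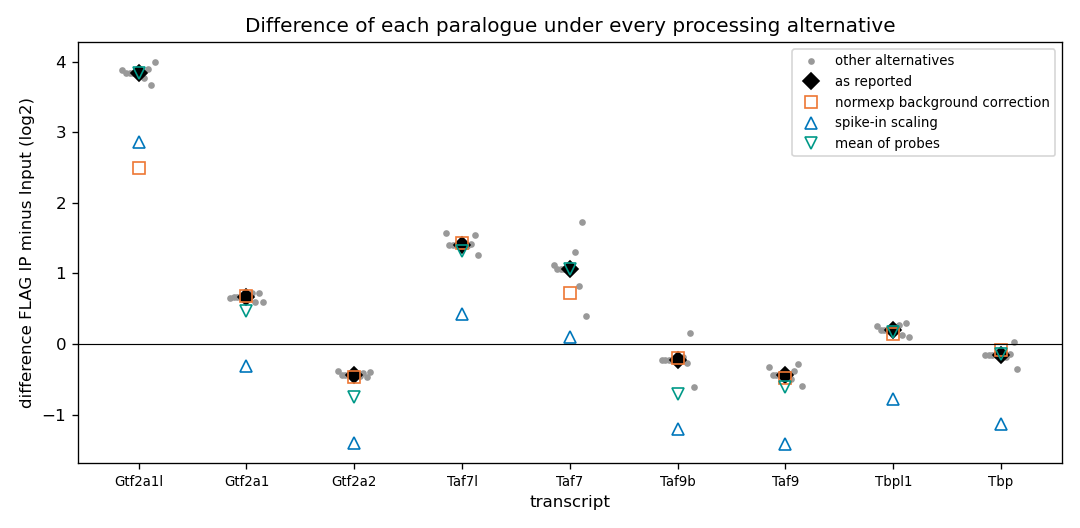
Difference FLAG IP minus Input (log2) of each of the 9 genes as reported (black diamond) and under each processing alternative. Spike-in scaling (blue triangles) lies below the reported value for every gene, normexp correction (orange squares) lowers Gtf2a1l from 3.83 to 2.49, and averaging probes (green triangles) moves Taf9b from −0.22 to −0.71 and Gtf2a2 from −0.43 to −0.75.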

How the data were processed

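Per the file headers, single-colour Agilent arrays (design build mm7) were scanned and extracted with Feature Extraction 9.5.1.1, all 4 on 1 slide in 1 scan. The deposited intensity columns are a background-subtracted processed signal and the median spot and background signals. The authors' deposited table is on a log2 scale: it equals log2 processed signal less a constant per array, within 0.01 for 99.6% of values, with column medians of 6.18, 6.25, 6.25 and 6.15.

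Control spots and 62 to 90 outlier spots per array were left out, none was saturated, and spots of a probe were averaged as log2. Each array's 75th percentile was subtracted. Probes were named through RefSeq accessions (GRCm38.p6), 55.7% of them with a symbol; coordinates are not used here. Signals at the 75th percentile were 1474 and 1676 (Input) and 1019 and 1267 (FLAG IP), and 66.3% to 68.4% of probes were well above background. Features well above background on both arrays of a group were tested with limma 3.58.1 in R 4.3.3, without covariates; the fit was tested on simulated data. With unnamed animals, p-values measure the spread between these arrays, which may be technical.

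Members and lists were chosen with earlier results of these data known. Named were all members, up to 3 called genes per machinery list with the largest change, 5 genes nearest to Gtf2a1l and to Taf7l, and up to 3 markers with the highest Input level for the germ cell and Sertoli lists. Ret, Eomes, Lhcgr, Tex13b, Sohlh2, Drap1, Gtf2b, Gtf2e1, Gtf2e2, Taf5l and Taf6l were named after their values were seen. So were the spermatid genes other than Prm1, Tnp1 and Spaca1. Marker lists of Leydig, myoid, macrophage, endothelial and red blood cells had 4 of 8, 3 of 6, 4 of 4, 0 of 5 and 1 of 2 tested genes lower and none higher. The shares over all tested features were 21.3% lower and 15.8% higher. Of the Leydig genes called lower, Lhcgr was well above background in the Input alone. Sequences of the proteins and probes are not shown.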

Additional observations from a re-analysis of the deposited data

How the results depend on the processing

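The replicate block and the filters leave the differences of members as they are by construction, leaving out 1 of 2 replicates cannot move them beyond the pooled SD, and spike-in scaling shifts all genes alike and no pair; agreement there says nothing about stability. Changes of sign were Tbpl1 (−0.77) and Gtf2a1 (−0.31) under spike-in scaling, which come from that common shift, Taf9b (0.16), Tbp (0.031) and the Taf7l to Taf7 shift (−0.19) without FLAG IP replicate 1, and the Taf9b to Taf9 shift with the mean of probes (−0.094) and without FLAG IP replicate 2 (−0.0096). Leaving out single replicates, Taf9b ran from −0.61 to 0.16, Tbp from −0.35 to 0.031, the Taf7l to Taf7 shift from −0.19 to 0.87 and the Taf9b to Taf9 shift from −0.0096 to 0.44. Calls over all features, 3409 higher and 4600 lower, were 625 and 14148 under spike-in scaling, 2615 and 3019 without a filter on dim probes, and 977 to 3727 and 552 to 4573 leaving out single replicates. The machinery's 7 higher and 8 lower were 1 and 32, 6 and 4, and 2 to 9 and 0 to 9 in the same settings. Members at least 2-fold higher in all array pairs numbered 1 under spike-in scaling, with 1 lower, and 2 to 3 leaving out single replicates, Taf7 being the addition. The labels do not say that replicate numbers pair samples. With the number as a replicate block the calls were 2269 higher and 2289 lower over all features, and 4 and 2 in the machinery. Same-numbered deviations correlated at −0.38 over features, and with crossed numbers, a setting chosen after seeing the data, the calls were 4321 and 6497, and 8 and 11. The causes of these changes were not tested, and fits that leave out 1 array also hold fewer samples. All arrays share 1 slide, so a slide block was not run. Dim signals of Gtf2a1l (Input) and Taf7 limit what their folds can show.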

Other observations

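The paralogues show how far a value can depend on the probe. Over all genes with a symbol and 2 measured probes the median distance between the probes' differences was 0.27, and 8.22% of those 3526 genes had probes at least 1 apart on the log2 scale. Among the 732 genes with 3 probes the median span was 0.54, 19.7% spanned at least 1 and 38.0% had probes on both sides of 0. Tbp (0.04) and Taf7l (0.18) lay under the median for genes with 2 probes, Gtf2a1 (0.38) and Taf9b (0.96) above it. Of the genes with 3 probes, Taf9 (0.48, its dim probe included) lay under the median, while Gtf2a2 (0.65) and Tbpl1 (1.41) lay above it. Gtf2a1l and Taf7 have 1 probe each, so no such distance exists for them.

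Spaca1, which encodes an acrosomal membrane protein of spermatids, stood at −2.59 and −2.55 in the Input and at 0.27 and −0.24 in the FLAG IP, a rise of 2.59 (limma, adjusted p = 0.0046), while the protamine and transition protein genes Prm1, Prm2, Tnp1 and Tnp2 had differences between −0.14 and 0.16 and were not called. The other tested spermatid genes, Akap4 at 1.18 and Tssk1 at 0.62, had the same sign as Spaca1 and were not called either (adjusted p = 0.12 and 0.052). It was singled out after its values were seen.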
